A study of Mus musculus with 12 samples.

Results

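The genes described here are 10 regulators of the passage from G1 into S phase of the cell cycle: the D cyclins Ccnd1, Ccnd2 and Ccnd3 with their kinases Cdk4 and Cdk6, the E cyclins Ccne1 and Ccne2 with their kinase Cdk2, the transcription factor E2f1, and the inhibitor Cdkn1b. They were found by gene symbol in the platform's annotation, and for each gene the probe set with 1 symbol and the highest mean over all arrays was used, which gave 10 of the 19938 genes tested. All 10 were measured and none was left out by a filter. RNA of microdissected mouse hearts at E8.75, the embryonic age in days, was hybridized to 12 Affymetrix arrays. The 4 groups of 3 arrays were Nkx2-5 KO, Tbx5 KO, a double KO of both genes (Tbx5KO;Nkx2-5KO in the labels), and wild type (WT). Nkx2-5 and Tbx5 encode transcription factors of the early heart, and the comparisons ask how the genes differ where 1 or both are missing. The labels call the arrays of a group biological replicates, and give neither the alleles nor the number of embryos behind an array.

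Growth signals act on this step through the D cyclins, which activate Cdk4 and Cdk6. These kinases begin to phosphorylate the retinoblastoma protein, Rb1, which otherwise holds E2F transcription factors inactive, and cyclin E with Cdk2 completes that step. Free E2F then switches on genes of DNA replication, its own gene and the E cyclin genes among them, while the protein of Cdkn1b, p27, binds cyclin E with Cdk2 and holds the cell in G1. In the early embryonic heart, cardiomyocytes still divide while they contract.

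Values are log2 expression values as deposited. A change is the difference of 2 group means on that scale, with its standard error (SE) from limma, so that each unit is a factor of 2. A gene is called, and said to have risen or fallen, where limma's p, adjusted by Benjamini and Hochberg over all 19938 genes, was under 0.05. Levels belong to a probe set and are compared between arrays only, not between genes.

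Some facts of the arrays bear on every comparison. The 12 cardiac muscle genes averaged 12.60 to 12.81 on Nkx2-5 KO arrays, 12.80 to 12.86 on Tbx5 KO arrays, 12.72 to 12.78 on double KO arrays and 12.73 to 12.77 on WT arrays. The Nkx2-5 probe set read 8.72 to 9.13 on Nkx2-5 KO arrays, 9.31 to 9.38 on Tbx5 KO arrays, 8.97 to 9.21 on double KO arrays and 9.33 to 9.36 on WT arrays. The Tbx5 probe set was higher on Tbx5 KO arrays (10.42 to 10.73) than on WT arrays (9.90 to 10.15), and since the removed part of either gene is not stated in the labels, neither probe set checks the genotype. Xist, the RNA that coats the inactive X chromosome of female cells, was low on all Nkx2-5 KO arrays (6.59 to 7.03) and double KO arrays (6.44 to 8.16), and high on all Tbx5 KO arrays (11.46 to 12.32) and WT arrays (11.50 to 11.87). Eif2s3y, on the Y chromosome, had the opposite order, at 10.33 to 10.67 on Nkx2-5 KO arrays, 10.37 to 10.61 on double KO arrays, 5.13 to 5.68 on Tbx5 KO arrays and 5.07 to 6.92 on WT arrays. Embryo sex and loss of Nkx2-5 therefore cannot be told apart. The exceptions are Tbx5 KO against WT and double KO against Nkx2-5 KO, which by both genes compare arrays of like sex. Some arrays were less clear. Eif2s3y was higher on WT replicate 3 (6.92) than on the other WT arrays (5.07 and 5.26). Xist was higher on double KO replicates 1 and 2 (7.69 and 8.16) than on any Nkx2-5 KO array. None of the 10 genes lies on a sex chromosome. WT replicate 2 stood apart from the other 2 WT arrays on red cell genes, where it was low, and on hypoxia genes, where it was high. It was also high on genes of proepicardium and epicardium (mean 9.39, against 8.43 and 8.62). Changes are given without this array where that matters. Double KO replicate 3 stood apart within its group on the 10 genes (mean 10.14, against 9.82 and 9.85). In bulk tissue, fewer cells of a type and less RNA per cell cannot be told apart.

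The plainest result was in the double KO. In these hearts 6 of the 10 genes fell against WT (Ccnd1, Cdk4, Cdk6, Ccne1, Ccne2 and E2f1) and the inhibitor Cdkn1b rose, so that 7 of 10 were called, where 23.4% of all genes were called, 14.4% lower and 9.05% higher. Each array centred on its own median gave 779 genes higher and 3769 lower, against 1804 and 2868 in the deposited values, because the median change of all genes moved to -0.06, against 0.06. With that centring 6 of the 10 genes were called, all lower, and Cdkn1b was no longer called. The median change of the 10 genes was -0.50 in the deposited values. Single KO hearts moved fewer of them. In Nkx2-5 KO hearts 1 of 10 was called, Cdkn1b, against 4.43% of all genes, and in Tbx5 KO hearts 3 of 10 were called, Ccnd2 and Cdkn1b higher and Ccnd1 lower, against 2.31% of all genes. Median changes of the 10 genes were -0.17 in Nkx2-5 KO and -0.12 in Tbx5 KO hearts, beside 0.0048 and 0.0096 for all genes. The shares of all genes called moved with the setting. With 1 array left out the share was 16.3% to 23.8% in double KO hearts. It was 0.848% to 5.47% in Nkx2-5 KO hearts, and over 1.5 times smaller than with all arrays without Nkx2-5 KO replicate 1 or 3 or WT replicate 1 or 3. It was 1.06% to 2.76% in Tbx5 KO hearts, and over 1.5 times smaller without any 1 of the Tbx5 KO arrays or WT replicate 1 or 3. All 10 genes were among the 10850 brighter genes, those with a mean above 8.36, the median of all genes, in at least 1 group. With these brighter genes alone the counts of the 10 called against WT were as above, while 40.8% of the genes tested were called for the double KO, 11.1% for Nkx2-5 KO hearts and 5.07% for Tbx5 KO hearts.

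**Figure D1:**
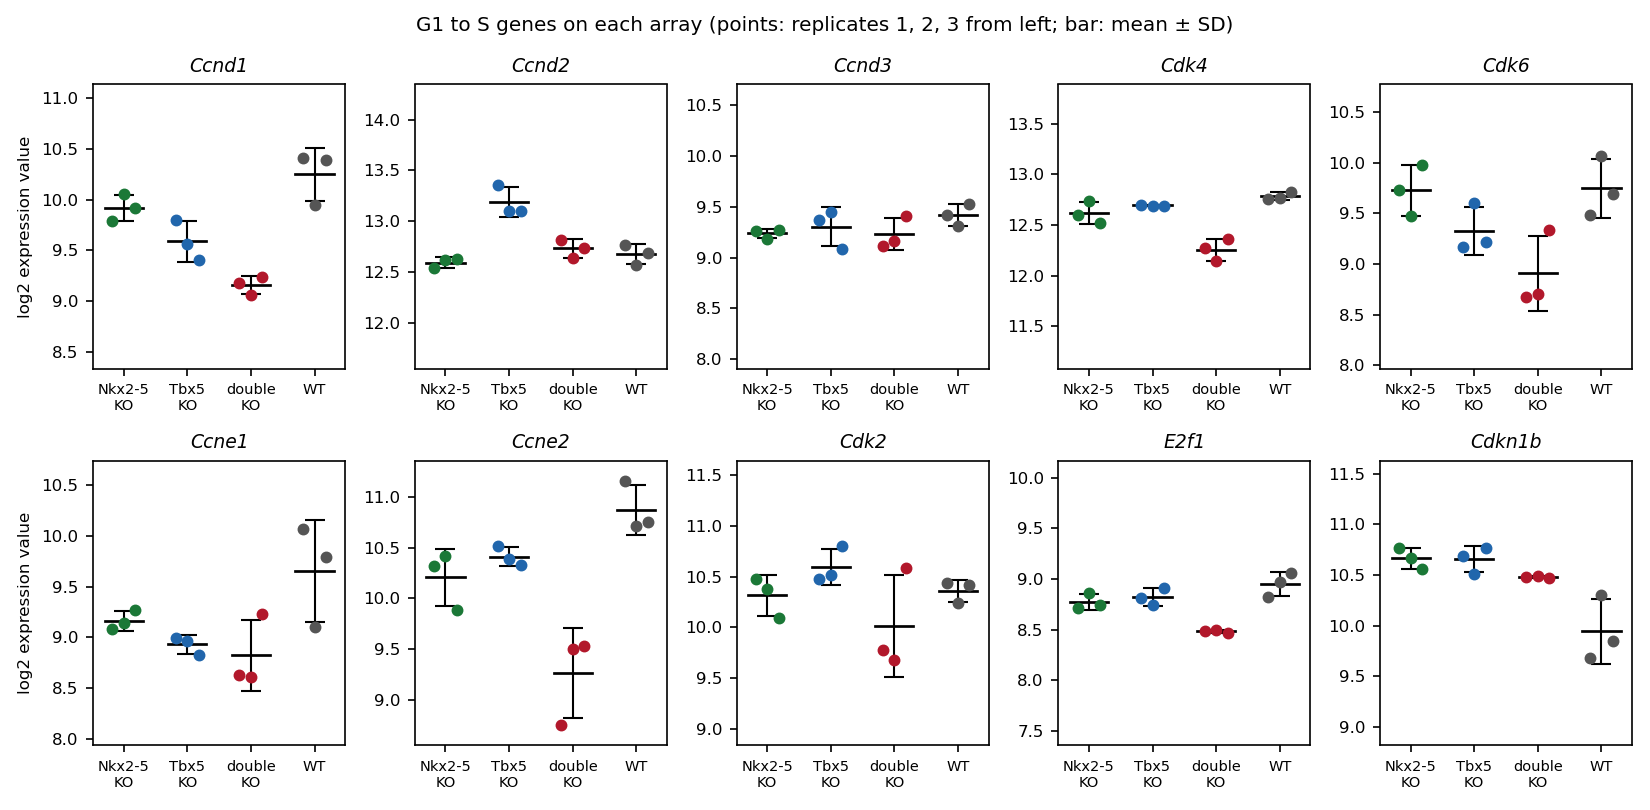
Log2 expression value of each of the 10 genes on each of the 12 arrays, with 1 panel per gene and its own axis range; points are replicates 1, 2 and 3 from left, the long bar is the group mean and the short bars mark 1 SD on either side. Double KO points lie below all WT points for Ccnd1, Cdk4, Cdk6, Ccne2 and E2f1, and every KO point lies above the WT points for Cdkn1b. Over all genes 18.7% had every double KO array below every WT array, and 22.4% had every one above. The shares below and above were 12.6% and 10.6% for Nkx2-5 KO arrays, and 11.4% and 9.72% for Tbx5 KO arrays.

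Among the D cyclins, which carry growth signals to the cell cycle, only Ccnd1 was called lower against WT. Ccnd1 read 9.79, 10.05 and 9.91 on Nkx2-5 KO arrays, 9.80, 9.56 and 9.40 on Tbx5 KO arrays, 9.18, 9.06 and 9.24 on double KO arrays, and 10.41, 9.94 and 10.39 on WT arrays. The double KO arrays were the 3 lowest of all 12, all Tbx5 KO arrays were below all WT arrays, and Nkx2-5 KO arrays overlapped WT only at WT replicate 2. In limma the change from WT was -1.09 ± 0.14 in double KO hearts (adjusted p = 0.000179), a fold of 2.13 lower, and it was called under all 21 alternative settings tried. Ccnd1 also fell in Tbx5 KO hearts, by 0.66 on the log2 scale (SE 0.14, adjusted p = 0.0291), but this call ended without Tbx5 KO replicate 2 or 3 or without WT replicate 1 or 3 (adjusted p up to 0.114), and with only the Tbx5 KO and WT arrays in the fit (0.0855). In Nkx2-5 KO hearts the change was -0.33 ± 0.14 (adjusted p = 0.237, and 0.0442 with array weights).

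Ccnd2, the D cyclin of many growing embryonic tissues, had a pattern of its own. It read 12.53, 12.62 and 12.63 on Nkx2-5 KO arrays, 13.36, 13.10 and 13.10 on Tbx5 KO arrays, 12.82, 12.64 and 12.73 on double KO arrays, and 12.77, 12.57 and 12.68 on WT arrays. The 3 Tbx5 KO arrays were the highest of all 12, and double KO and WT arrays overlapped. It rose in Tbx5 KO hearts by 0.51 ± 0.10 (limma, adjusted p = 0.0185), a call that ended without Tbx5 KO replicate 1 or without WT replicate 2 or 3 (adjusted p up to 0.0723), and with only the Tbx5 KO and WT arrays in the fit (0.0608). Double KO hearts differed from WT by 0.06 ± 0.10 (adjusted p = 0.707) and Nkx2-5 KO hearts by -0.08 ± 0.10 (adjusted p = 0.779).

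Tbx5 KO arrays also stood out for a pair of placental hormone genes. Of the 12 markers listed for trophoblast and decidua, 8 were measured, and 2 rose in Tbx5 KO hearts against WT, the prolactin family hormones Prl3d3 (4.32 ± 0.35, adjusted p = 4.71e-05) and Prl8a2 (3.15 ± 0.27, adjusted p = 5.47e-05). Over all genes 0.998% were called higher in that comparison. The other 6 markers were not called there, with changes between -0.28 and 0.32, so that the mean level of the 8 rests on these 2 genes. That mean was 7.61 to 7.70 on Tbx5 KO arrays, against 6.72 to 6.85 on Nkx2-5 KO arrays, 6.62 to 6.78 on double KO arrays and 6.60 to 6.72 on WT arrays. Of all other genes, those most like Ccnd2 over the 12 arrays were Prl7a1 (Pearson r = 0.95), Hand1 (0.94) and Prl8a2 (0.93). The part of such tissue in the Ccnd2 result was not tested.

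**Figure D2:**
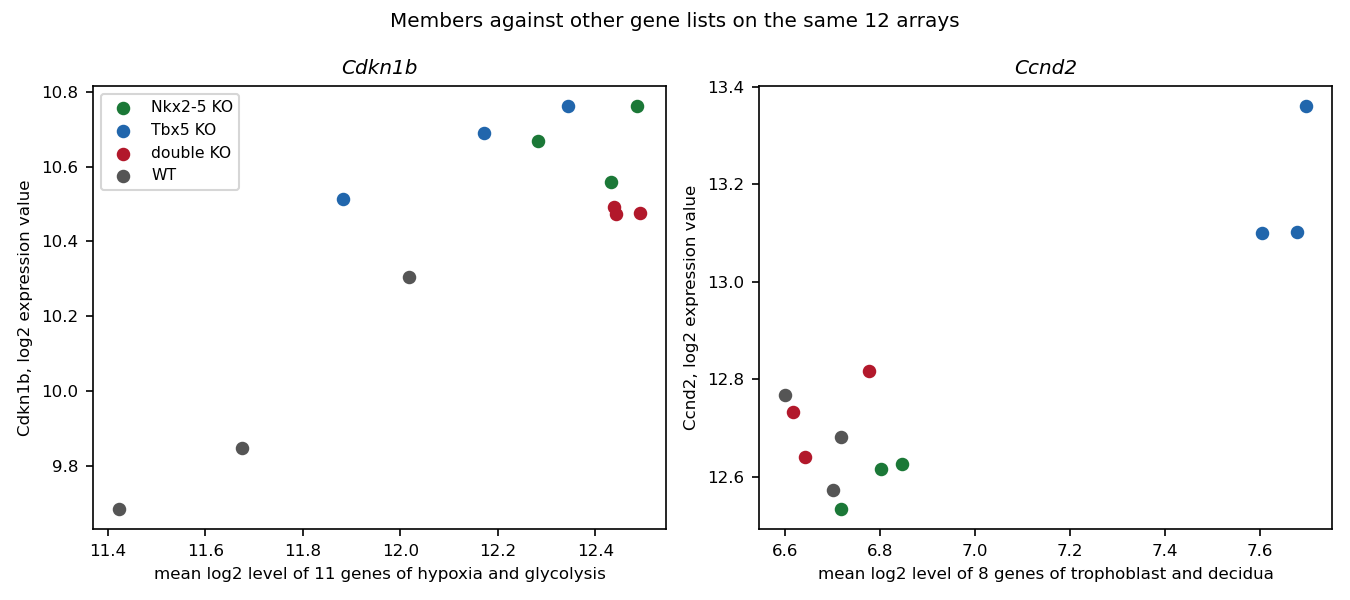
Left, Cdkn1b against the mean log2 level of 11 genes of hypoxia and glycolysis; right, Ccnd2 against that of 8 genes of trophoblast and decidua; each point is 1 of 12 arrays, coloured by group. Tbx5 KO arrays, at 7.61 to 7.70, lie apart from the rest on the right, and the WT arrays are the lowest for Cdkn1b on the left.

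Ccnd3, the remaining D cyclin, was called in none of the comparisons. Its group means were 9.24 in Nkx2-5 KO, 9.30 in Tbx5 KO, 9.23 in double KO and 9.42 in WT hearts, and its changes from WT lay between -0.19 and -0.12 with an SE of 0.12. Adjusted p from limma was 0.259 in the double KO, and no alternative setting made a call there. All 3 Nkx2-5 KO arrays were below all WT arrays, at 9.18 to 9.27 against 9.31 to 9.53, as were those of 12.6% of all genes.

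Cdk4 and Cdk6 are the partner kinases of the D cyclins. Cdk4 read 12.60, 12.74 and 12.52 on Nkx2-5 KO arrays, 12.70, 12.69 and 12.69 on Tbx5 KO arrays, 12.27, 12.14 and 12.36 on double KO arrays, and 12.76, 12.76 and 12.83 on WT arrays. Every KO array was below every WT array, and the double KO arrays were the 3 lowest. Over all genes 12.6% had every Nkx2-5 KO array, 11.4% every Tbx5 KO array and 18.7% every double KO array below WT. In limma it fell in double KO hearts by 0.53 on the log2 scale (SE 0.09, adjusted p = 0.00111), which was called under all 21 alternatives. Changes in the single KOs, -0.17 in Nkx2-5 KO and -0.09 in Tbx5 KO hearts (SE 0.09 each), were not called (adjusted p = 0.379 and 0.739).

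Cdk6 read 9.73, 9.47 and 9.98 on Nkx2-5 KO arrays, 9.17, 9.60 and 9.21 on Tbx5 KO arrays, 8.68, 8.71 and 9.34 on double KO arrays, and 9.48, 10.06 and 9.70 on WT arrays. The double KO arrays were all below the WT arrays but differed among themselves, replicate 3 being the highest. Cdk6 fell in double KO hearts (-0.84 ± 0.21, adjusted p = 0.0106 in limma). Without double KO replicate 2 the change was -0.74 and the adjusted p 0.0501, while without replicate 3 the change was -1.05 (adjusted p = 0.00225). In the single KOs its differences from WT were -0.02 (Nkx2-5 KO) and -0.42 (Tbx5 KO), both with an SE of 0.21 and neither called (adjusted p = 0.984 and 0.375).

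Promoter windows were read because 6 of the genes moved together and both missing factors bind DNA. RefSeq's table of mouse promoters (GRCm38.p6) held 7 of the 10 genes, and the 250 bases before the start of each were searched on both strands. The E2f1 window is open to doubt, since its letters look like coding sequence of the gene and not promoter, and it is left out of what follows. This leaves 6 genes: Ccne1, Ccnd3, Cdk2, Cdk4, Cdk6 and Cdkn1b. They are not the 6 that fell in double KO hearts, of which only Ccne1, Cdk4 and Cdk6 could be searched. The words were AGGTGT, a short site of T-box factors such as Tbx5, TNAAGTG for Nkx2-5, and the E2F words TTTCCCGC, TTTCCCGG, TTTCGCGC, TTTCGCGG, TTTGCCGC, TTTGCCGG, TTTGGCGC and TTTGGCGG. CACGTG, the E-box that Myc binds, was added after the windows had been read. The T-box word occurred in 11.8%, the Nkx2-5 word in 10.1%, an E2F word in 3.68% and the E-box in 6.02% of all 32851 windows of that length. None of the 6 genes searched held the Nkx2-5 word, which says only that these letters are not in these windows. The Cdk4 window is shown as the one with both a T-box word and E-boxes, at chr10:127063285-127063534 on the plus strand. Capitals mark the T-box word, which reads on the strand opposite the gene 151 to 146 bases before the start, and 4 copies of CACGTG, the nearest 11 to 6 bases before it.
Cdk4: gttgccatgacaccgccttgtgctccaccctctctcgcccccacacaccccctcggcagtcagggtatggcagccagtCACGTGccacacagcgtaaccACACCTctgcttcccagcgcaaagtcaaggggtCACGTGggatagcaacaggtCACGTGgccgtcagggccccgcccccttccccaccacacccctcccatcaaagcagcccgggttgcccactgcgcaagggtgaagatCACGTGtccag

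Myc, a transcription factor known to bind E-boxes of the Cdk4 promoter, fell in all 3 KO groups. It read 9.46, 9.75 and 9.55 on Nkx2-5 KO arrays, 9.20, 8.86 and 8.94 on Tbx5 KO arrays, 8.54, 8.77 and 8.79 on double KO arrays, and 10.26, 9.96 and 10.01 on WT arrays. All KO arrays were below all WT arrays, and the double KO arrays were the lowest. Its changes from WT were -1.08 ± 0.13 in Tbx5 KO hearts (limma, adjusted p = 0.000773) and -1.37 ± 0.13 in double KO hearts (2.41e-05), both called under all alternatives, and -0.49 ± 0.13 in Nkx2-5 KO hearts (0.0484), which was lost under several, among them without any 1 of the WT arrays, with adjusted p up to 0.190. Myc was also among the 3 genes most like Ccnd1 over the 12 arrays (r = 0.95), after Akr1a1 (0.96) and Emg1 (0.95), and the genes most like Cdk4 were Supt16 (0.99), Pcna (0.99) and Nasp (0.99). These correlations describe 12 arrays that share their groups. Against WT, Cdk4 was called only in double KO hearts, and changed by -0.09 ± 0.09 in Tbx5 KO hearts (limma, adjusted p = 0.739). The part of Myc in the changes of Cdk4 and Ccnd1 was not tested. Cdk6 held 1 E-box, 220 to 215 bases before its start, and no match to the other words.

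The E cyclins activate Cdk2 at the start of S phase, and Ccne2 showed the largest fall of the 10 genes in double KO hearts. It read 10.32, 10.42 and 9.89 on Nkx2-5 KO arrays, 10.51, 10.39 and 10.33 on Tbx5 KO arrays, 8.752, 9.50 and 9.53 on double KO arrays, and 11.16, 10.71 and 10.75 on WT arrays. The groups did not overlap with WT in any KO, and the double KO arrays were the 3 lowest. Such a place wholly below WT was held by 12.6% (Nkx2-5 KO), 11.4% (Tbx5 KO) and 18.7% (double KO) of all genes. In double KO hearts the change from WT was -1.61 ± 0.20 (limma, adjusted p = 0.000169), a fold of 3.05 lower, called under all 21 alternatives with changes between -1.74 and -1.35 where 1 array was left out. In Nkx2-5 KO hearts the difference was -0.66 ± 0.20 (adjusted p = 0.0912) and in Tbx5 KO hearts -0.46 ± 0.20 (adjusted p = 0.313). The first of these was called without double KO replicate 1 (adjusted p = 0.0322), an array that enters it only through the shared estimate of the spread. Genes most like Ccne2 over the 12 arrays were Psmb7, 0610010K14Rik (r = 0.98 each) and Timm17a (0.97).

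Ccne1 read 9.08, 9.14 and 9.27 on Nkx2-5 KO arrays, 8.998, 8.97 and 8.83 on Tbx5 KO arrays, 8.63, 8.61 and 9.23 on double KO arrays, and 10.07, 9.10 and 9.79 on WT arrays. WT replicate 2 lay among the KO arrays, far below the other 2 WT arrays. Ccne1 fell in double KO hearts by 0.83 on the log2 scale (SE 0.22, limma, adjusted p = 0.0146), and the call ended without double KO replicate 1 or 2, without WT replicate 1 or 3, or with the arrays of the 2 groups alone (adjusted p up to 0.0662). Differences of -0.49 ± 0.22 in Nkx2-5 KO and -0.72 ± 0.22 in Tbx5 KO hearts were not called (adjusted p = 0.254 and 0.112). Without WT replicate 2 they were -0.77 (Nkx2-5 KO) and -1.0003 (Tbx5 KO) and both were called (adjusted p = 0.0305 and 0.0149), as they were with array weights (0.0471 and 0.0320), and the double KO change was -1.11 (0.00118).

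Red cell genes had the same odd array. Of 10 markers listed for erythroid cells, 7 were measured, and their mean level was 10.83, 10.18 and 10.88 on Nkx2-5 KO arrays, 10.42, 10.37 and 10.37 on Tbx5 KO arrays, 9.77, 9.37 and 10.13 on double KO arrays, and 11.31, 10.001 and 11.17 on WT arrays. WT replicate 2 was 1 of the lower arrays. In double KO hearts 3 of the 7 fell, the embryonic globins Hbb-bh1 (-2.21 ± 0.56, adjusted p = 0.0121), Hba-x (-1.75 ± 0.40, adjusted p = 0.00780) and Hbb-y (-0.90 ± 0.28, adjusted p = 0.0349), and none in the single KOs. The calls of Hbb-bh1 and Hbb-y ended without double KO replicate 2 or without WT replicate 1 or 3 (adjusted p up to 0.127). With all arrays 14.4% of all genes were called lower in double KO hearts. Without WT replicate 2 the counts were 6 of 7 in double KO, 2 in Nkx2-5 KO and 3 in Tbx5 KO hearts. In that setting 19.6%, 4.53% and 2.33% of all genes were called, higher or lower. Pearson r between Ccne1 and the erythroid mean was 0.84 over the 12 arrays and 0.85 after each group's mean was removed, as a description of arrays that share their groups. Ccne1 was not alone in this. For the other genes r ran from -0.48 (Cdkn1b) to 0.81 (Ccnd1) over the 12 arrays. With group means removed it ran from -0.72 (Cdkn1b) to 0.56 (Ccnd1). The part of red cells in the Ccne1 result was not tested. Genes most like Ccne1 were Tnfrsf21 (r = 0.96), Mbnl1 (0.93) and Mgst3 (0.92).

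Cdk2, the kinase that both E cyclins activate, read 10.47, 10.38 and 10.09 on Nkx2-5 KO arrays, 10.48, 10.51 and 10.80 on Tbx5 KO arrays, 9.77, 9.68 and 10.59 on double KO arrays, and 10.43, 10.24 and 10.42 on WT arrays. Double KO replicate 3 lay above all WT arrays and the other 2 double KO arrays below them. With all 12 arrays weighted equally no comparison called Cdk2, and the difference between double KO and WT was -0.35 ± 0.20 (limma, adjusted p = 0.231). Without double KO replicate 3 it was -0.64 (adjusted p = 0.00640), and -0.59 between double KO and Nkx2-5 KO (0.0277), so that the absence of a call rests on that array. The Cdk2 window is shown as the only one of the 6 genes searched with an E2F word, marked in capitals. It lies at chr10:128705052-128705301 on the minus strand, and the word reads TTTCCCGC on the strand opposite the gene, 140 to 133 bases before the start.
Cdk2: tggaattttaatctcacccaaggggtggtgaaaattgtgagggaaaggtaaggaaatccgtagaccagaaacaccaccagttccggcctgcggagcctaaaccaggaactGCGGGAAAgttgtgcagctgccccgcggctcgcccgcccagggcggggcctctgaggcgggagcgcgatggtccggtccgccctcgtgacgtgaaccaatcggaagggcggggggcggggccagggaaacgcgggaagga

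E2f1, the transcription factor that cyclin and kinase activity sets free, varied little within groups. It read 8.71, 8.86 and 8.747 on Nkx2-5 KO arrays, 8.82, 8.74 and 8.91 on Tbx5 KO arrays, 8.49, 8.49 and 8.47 on double KO arrays, and 8.83, 8.97 and 9.06 on WT arrays. The double KO arrays were the 3 lowest, and both single KO groups overlapped WT. It fell in double KO hearts (-0.47 ± 0.09, limma, adjusted p = 0.00249), a fold of 1.38 lower, called under all 21 alternatives. In Nkx2-5 KO hearts the difference was -0.18 ± 0.09 (adjusted p = 0.337) and in Tbx5 KO hearts -0.13 ± 0.09 (0.581). Pbx3 (r = 0.97), Cenpj (0.96) and Nmt1 (0.96) were most like it.

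Cdkn1b, whose protein p27 inhibits cyclin E with Cdk2, was the only one of the 10 genes called higher in all 3 KO groups. It read 10.76, 10.67 and 10.56 on Nkx2-5 KO arrays, 10.69, 10.51 and 10.76 on Tbx5 KO arrays, 10.48, 10.49 and 10.47 on double KO arrays, and 9.69, 10.30 and 9.85 on WT arrays. Every KO array was above every WT array, with WT replicate 2 the highest of its group, and every double KO array was below every single KO array. A place wholly above WT was held by 10.6% (Nkx2-5 KO), 9.72% (Tbx5 KO) and 22.4% (double KO) of all genes. In limma it rose by 0.72 ± 0.14 in Nkx2-5 KO hearts (adjusted p = 0.0152), by 0.71 ± 0.14 in Tbx5 KO hearts (0.0195) and by 0.53 ± 0.14 in double KO hearts (0.0140). These calls leaned on single arrays: each ended without WT replicate 1 or WT replicate 3, the first also without Nkx2-5 KO replicate 1 and the second without Tbx5 KO replicate 1 or 3, with adjusted p up to 0.0825. The Tbx5 KO call also ended with only the Tbx5 KO and WT arrays in the fit (0.0761). Without WT replicate 2 the changes were 0.90, 0.89 and 0.71.

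A second probe set for Cdkn1b gave a less clear picture. It read 10.31, 10.52 and 10.35 on Nkx2-5 KO arrays, 10.43, 10.21 and 10.54 on Tbx5 KO arrays, 9.92, 10.40 and 10.25 on double KO arrays, and 9.55, 10.49 and 9.71 on WT arrays. WT replicate 2 lay among the KO arrays there, while the other 2 WT arrays were below all of them. Double KO arrays overlapped both single KO groups. With the mean of both probe sets none of the 3 changes was called (0.60, 0.59 and 0.40, limma, adjusted p = 0.0623, 0.0900 and 0.0998).

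The Cdkn1b window is shown for its T-box word, in capitals, which reads AGGTGT on the strand opposite the gene, 187 to 182 bases before the start. It lies at chr6:134920151-134920400 on the plus strand. A match is a description of the letters and not of binding.
Cdkn1b: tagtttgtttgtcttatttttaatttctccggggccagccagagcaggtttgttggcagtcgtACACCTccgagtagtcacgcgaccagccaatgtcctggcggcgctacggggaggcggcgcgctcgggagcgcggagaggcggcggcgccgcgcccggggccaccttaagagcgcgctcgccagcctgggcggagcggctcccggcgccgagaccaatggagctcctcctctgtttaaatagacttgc

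Genes of hypoxia and glycolysis shared only part of this order of arrays. Of 12 listed, 11 were measured, and against WT 4 rose in Nkx2-5 KO hearts, 0 in Tbx5 KO hearts and 8 in double KO hearts, with 3 in Tbx5 KO hearts once WT replicate 2 was left out. Over all genes 1.84%, 0.998% and 9.05% were called higher in these 3 groups. Without WT replicate 2 the share called in Tbx5 KO hearts, higher or lower, was 2.33%. Vegfa, a growth factor for blood vessels, rose by 1.04 ± 0.16 in Nkx2-5 KO hearts (limma, adjusted p = 0.00567) and by 1.18 ± 0.16 in double KO hearts (0.000236). The mean level of the 11 was 12.49, 12.28 and 12.43 on Nkx2-5 KO arrays, 12.17, 11.88 and 12.34 on Tbx5 KO arrays, 12.49, 12.44 and 12.44 on double KO arrays, and 11.42, 12.02 and 11.68 on WT arrays. WT replicate 2 was again the highest WT array. Unlike for Cdkn1b, the double KO arrays lay above all Tbx5 KO arrays, and Tbx5 KO replicate 2 lay below WT replicate 2. Pearson r between Cdkn1b and this mean was 0.83 over the 12 arrays and 0.89 after each group's mean was removed, as a description. For the other genes r ran from -0.77 (Ccne1) to -0.12 (Ccnd2) over the 12 arrays. With group means removed it ran from -0.68 (Ccnd1) to 0.47 (E2f1), and was -0.67 for Ccne1. The part of this response in the Cdkn1b result was not tested. Genes most like Cdkn1b were Pkm, an enzyme of glycolysis (r = 0.95), Scpep1 (0.95) and Igfbp3 (0.93).

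**Figure D3:**
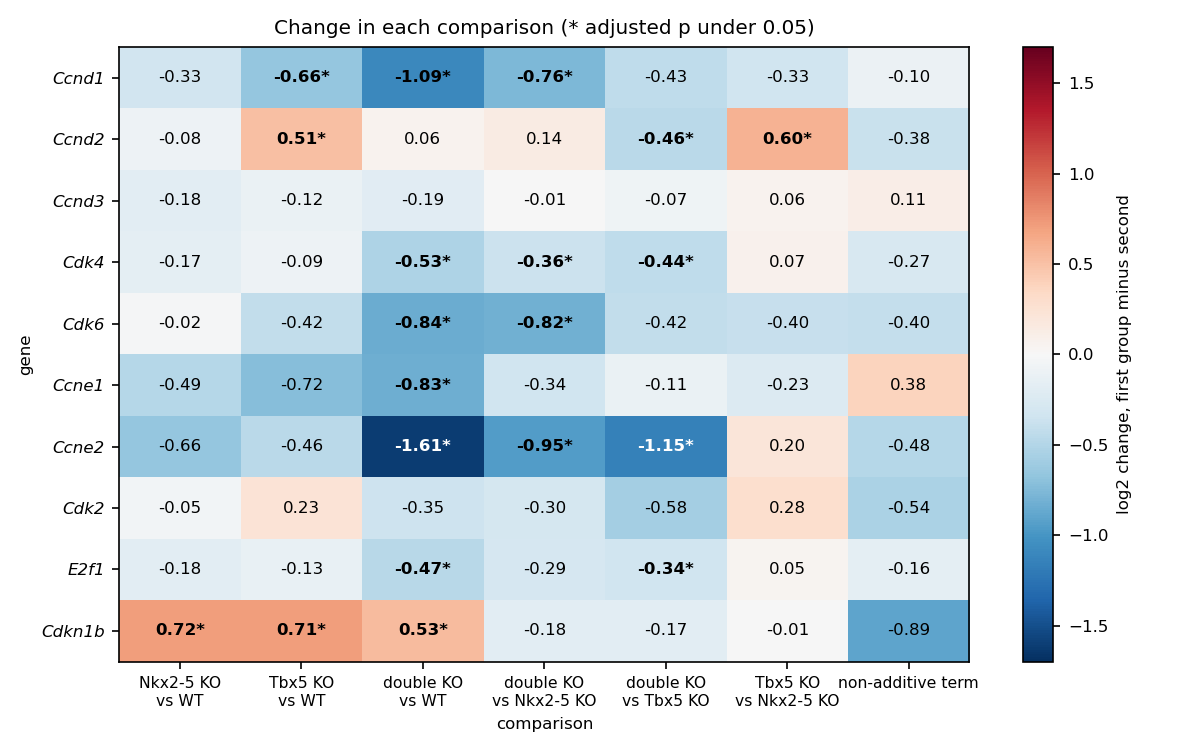
Log2 change of each gene (rows) in each comparison (columns), first group minus second; an asterisk marks an adjusted p under 0.05 in limma over 19938 genes. The non-additive term is what the double KO change holds beyond both single KO changes added together. Ccne2 and Ccnd1 have the largest falls in double KO hearts against WT, -1.61 and -1.09, and Cdkn1b is called in all 3 comparisons with WT.

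Set against the single KOs, double KO hearts had lower levels of several of these genes. Against Nkx2-5 KO hearts 4 of 10 fell, where 5.56% of all genes were called: Ccne2 (-0.95 ± 0.20, adjusted p = 0.0188), Ccnd1 (-0.76 ± 0.14, 0.00801), Cdk4 (-0.36 ± 0.09, 0.0354) and Cdk6 (-0.82 ± 0.21, 0.0373), all in limma. Of these Ccnd1 was called under all 21 alternatives. Ccne2 lost its call without Nkx2-5 KO replicate 1 or 2 (adjusted p up to 0.0828). Cdk4 lost its call without double KO replicate 1 or 2, Nkx2-5 KO replicate 1 or 2, Tbx5 KO replicate 1 or WT replicate 3 (up to 0.138), and Cdk6 without double KO replicate 1 or 2, Nkx2-5 KO replicate 1 or 3, Tbx5 KO replicate 1 or WT replicate 3 (up to 0.142). Both also missed when the values were quantile normalized again (0.101 for Cdk4 and 0.0533 for Cdk6), and Ccne2, Cdk4 and Cdk6 missed with only the arrays compared in the fit (0.0679, 0.125 and 0.0718). By Xist (low) and Eif2s3y (high) these 2 groups are of like sex, with the spread in Xist given above.

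Against Tbx5 KO hearts 4 of 10 fell, where 10.7% of all genes were called. They were Ccne2 (-1.15 ± 0.20, adjusted p = 0.00344), Ccnd2 (-0.46 ± 0.10, 0.0104), Cdk4 (-0.44 ± 0.09, 0.00770) and E2f1 (-0.34 ± 0.09, 0.0303). Ccne2 and Cdk4 were called under all 21 alternatives, Ccnd2 missed only without Tbx5 KO replicate 1 (adjusted p = 0.0512), and E2f1 missed without Tbx5 KO replicate 1 or 3 or without any 1 of the double KO arrays (up to 0.109), and with only the arrays compared in the fit (0.0643). Ccnd1 differed by -0.43 ± 0.14, with every double KO array below every Tbx5 KO array, and was not called (adjusted p = 0.0717), though it was with each array centred on its median (0.0310), with array weights (0.0165), without dim genes (0.0479) or without WT replicate 2 (0.0341). Cdk2 differed by -0.58 ± 0.20 (adjusted p = 0.0883), and was called with array weights (0.0209) and, at -0.87, without double KO replicate 3 (0.00191).

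Between the single KOs 1 of 10 was called, Ccnd2, which was higher in Tbx5 KO than in Nkx2-5 KO hearts by 0.60 ± 0.10 (limma, adjusted p = 0.00599), where 2.39% of all genes were called. That call held under all 21 alternatives. The non-additive term, which asks whether the double KO change differs from the sum of both single KO changes, called 0 of 10 genes in limma, with 2 of 10 at an unadjusted p under 0.05, where 0.547% of all genes were called. The 2 were Cdkn1b (-0.89 ± 0.20, adjusted p = 0.0743) and Ccnd2 (-0.38 ± 0.14, adjusted p = 0.399). For Cdkn1b the term was called at -1.07 without WT replicate 2 (adjusted p = 0.00993) and at -0.99 with array weights (0.0130). Double KO and single KO changes from WT share the same WT arrays.

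**Figure D4:**
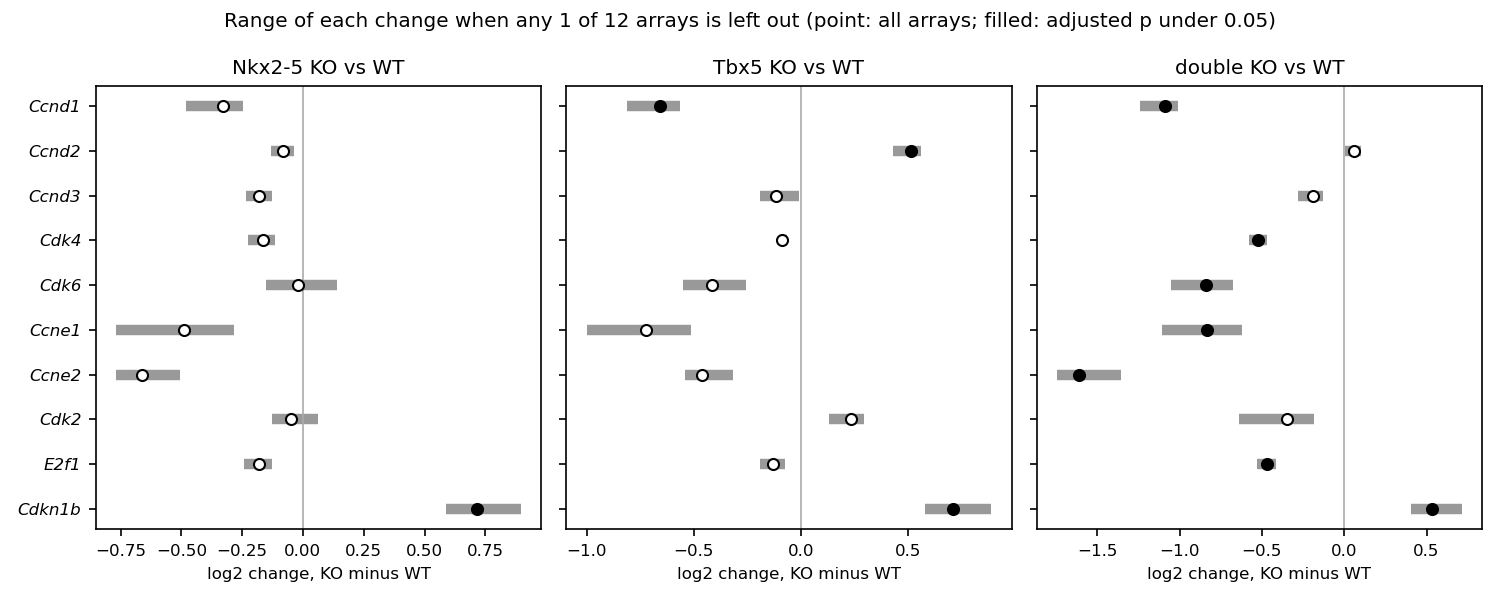
Log2 change of each gene in each KO against WT: the point is the value from all 12 arrays, filled where called, and the grey bar runs over the values with any 1 array left out. In the double KO no bar reaches 0, whether or not the gene was called with all arrays. Among genes not called there, the bar of Cdk2 runs between -0.64 and -0.18 and that of Ccnd2 between 0.0057 and 0.104. A bar does not measure the precision of a change. For Ccnd2 the change was 0.06 ± 0.10, and as low as -0.07 in the other settings. The double KO calls of Ccne2, Ccnd1, Cdk4 and E2f1 held with any 1 array left out.

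Other genes of the same pathway were counted from lists. Among them Rb1, the pocket protein that holds E2F inactive, was higher on every KO array than on every WT array. It read 9.85, 9.71 and 9.84 on Nkx2-5 KO arrays, 9.34, 9.15 and 9.37 on Tbx5 KO arrays, 10.11, 10.16 and 9.99 on double KO arrays, and 8.84 to 9.01 on WT arrays. No group overlapped another. In limma it rose by 0.85 ± 0.10 in Nkx2-5 KO hearts (adjusted p = 0.000677) and by 1.14 ± 0.10 in double KO hearts (1.35e-05), both called under all alternatives, and differed by 0.34 ± 0.10 in Tbx5 KO hearts (0.0956). Double KO hearts were higher than Tbx5 KO hearts by 0.80 ± 0.10 (adjusted p = 0.000272).

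Over all genes 9.05% were called higher and 14.4% lower in double KO hearts, and 1.84% higher in Nkx2-5 KO hearts. Of the 12 pocket proteins and other E2F family genes, 1 rose (Rb1) and 6 fell in double KO hearts, with a median change of -0.41. Those that fell included the repressor E2f8 (-1.51 ± 0.26, limma, adjusted p = 0.00121), itself an E2F target, and the pocket protein Rbl1 (-1.10 ± 0.21, 0.00214). In Nkx2-5 KO hearts 2 rose, Rb1 and Tfdp2, a partner of E2F (0.45 ± 0.11, adjusted p = 0.0420, and up to 0.169 with 1 array left out), and in Tbx5 KO hearts none of the 12 was called. Of 5 measured CDK inhibitors other than Cdkn1b, 2 fell in double KO hearts, Cdkn2c (-0.57 ± 0.19, 0.0439) and Cdkn2d (-0.40 ± 0.12, 0.0316), both lost under several alternatives with adjusted p up to 0.151 and 0.108, and none was called in the single KOs.

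Of 13 other regulators of this step, 12 fell in double KO hearts (median change -0.67), 2 in Nkx2-5 KO hearts (-0.28) and 1 in Tbx5 KO hearts (-0.15). Over all genes 14.4%, 2.59% and 1.31% were called lower in these 3 groups. Cks2, a small subunit of cyclin-dependent kinases, fell by 1.36 on the log2 scale in double KO hearts (SE 0.14, limma, adjusted p = 4.58e-05), and Cdc25a, the phosphatase that activates Cdk2, fell by 1.05 (SE 0.20, 0.00252). Skp2, which marks p27 for breakdown and was picked here after its value was seen, also fell there, by 0.77 (SE 0.15, adjusted p = 0.00222). The count of 12 was 8 when the values were quantile normalized again and 8 to 12 with 1 array left out, and both calls in Nkx2-5 KO hearts, Myc and Cdk7 (-0.50 ± 0.13, adjusted p = 0.0490), were lost with that setting.

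E2F target genes of S phase entry, counted without Ccne1, Ccne2 and E2f1, had the largest median change of the cell cycle lists in double KO hearts, though the share called was no larger than among the 13 other regulators. In double KO hearts 16 of 18 fell (median change -1.18), between 16 and 17 under all alternatives, in Nkx2-5 KO hearts 3 of 18 (median -0.41) and in Tbx5 KO hearts 0 of 18 (median -0.19). The shares of all genes called lower against WT were 14.4%, 2.59% and 1.31% in these 3 groups. Against Nkx2-5 KO hearts 12 of 18 fell in double KO hearts, where 4.55% of all genes were called lower. Against Tbx5 KO hearts 16 of 18 fell, where 7.86% of all genes were called lower. Prim1, the catalytic subunit of the primase that starts DNA strands, fell by 2.17 (SE 0.25, limma, adjusted p = 9.04e-05), Rrm2, a subunit of the enzyme that makes DNA building blocks, by 2.14 (SE 0.25, 9.68e-05), and Gins1, a part of the replicative helicase, by 1.95 (SE 0.16, 1.35e-05). In Nkx2-5 KO hearts the replication licensing gene Cdc6 (-0.97 ± 0.19, adjusted p = 0.0176), Tyms (-0.84 ± 0.17, 0.0177) and Gins1 (-0.81 ± 0.16, 0.0180) fell, and all 3 calls ended without Nkx2-5 KO replicate 1 or 3 or WT replicate 1 or 3, with adjusted p up to 0.0812. All lists were drawn up with earlier results of these data known, so that their counts are no independent support.

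**Figure D5:**
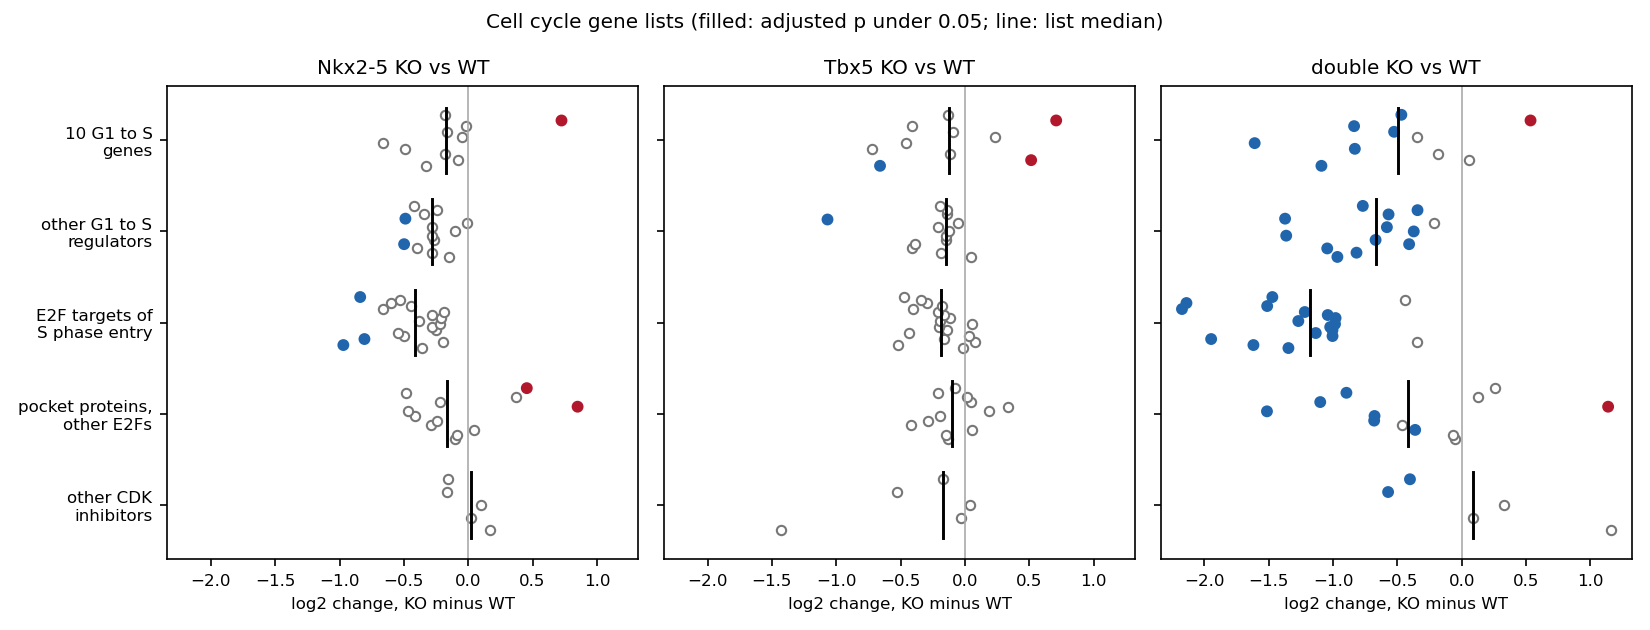
Log2 change from WT of every measured gene of 5 lists in the 3 KO groups (panels, Nkx2-5 KO at left and double KO at right); filled points have an adjusted p under 0.05 in limma (red higher, blue lower), open points do not, and the vertical bar is the list's median. In the double KO the E2F targets have a median of -1.18 with 16 of 18 filled, and Rb1 is the filled point at 1.14.

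Some markers of other tissues differed from WT as well, in all 3 KO groups. In double KO hearts 4 of 10 genes of endocardium and endothelium fell, among them Npr3 (-1.24 ± 0.19, limma, adjusted p = 0.000516) and Tek (-1.19 ± 0.23, 0.00236), while the other 6, such as Pecam1 (0.15) and Kdr (0.43), had changes between 0.13 and 0.43 and were not called. The mean level of all 10 was 9.50 to 9.59 on double KO arrays and 9.45 to 10.10 on WT arrays. Of 8 genes of proepicardium and epicardium 3 fell, including Wt1 (-0.90 ± 0.19, 0.00430). The mean level of all 8 was 8.30 to 8.52 on double KO arrays and 8.43 to 9.39 on WT arrays. Of 10 genes of foregut and visceral endoderm 3 rose, including Sox17 (0.52 ± 0.11, 0.00320). The mean level of these 10 was 8.45 to 8.73 on double KO arrays and 8.09 to 8.45 on WT arrays. Of 8 neural genes 2 rose, including Pax6 (1.85 ± 0.16, 1.80e-05), and 1 fell, Tubb3 (-1.55 ± 0.27, 0.00131). The mean level of the 8 neural genes was 8.38 to 8.48 on double KO arrays and 8.03 to 8.24 on WT arrays. Cardiac muscle genes were 3 higher and 1 lower of 12. In the same comparison 9.05% of all genes were called higher and 14.4% lower, so that such counts in short lists are no result about a tissue. Pax6 rose by 1.696 ± 0.16 in Nkx2-5 KO hearts too (limma, adjusted p = 0.000230), where Tubb3 changed by -1.49 ± 0.27 (0.0114, lost without Nkx2-5 KO replicate 1). In Tbx5 KO hearts Pax6 rose by 0.97 ± 0.16 (0.00819) and Tubb3 changed by -1.73 ± 0.27 (0.00561). Cdh1, an epithelial cadherin, rose in Nkx2-5 KO hearts (1.22 ± 0.28, 0.0280) and Tbx18, of the epicardium, fell in Tbx5 KO hearts (-0.96 ± 0.20, 0.0276), both lost under several alternatives with adjusted p up to 0.101 and 0.0923. The part of these tissues in the changes of the cell cycle genes was not tested.

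Over the 12 arrays the 10 genes mostly ran together. Of their 45 pairs 35 had a positive Pearson r and 6 had an r over 0.8, the highest being Cdk4 with E2f1 (0.92) and Ccne2 with Cdk4 (0.89). Cdkn1b was negative with 7 of the other 9, with an r of -0.80 against Ccne1. After group means were removed, Ccne1 and Cdkn1b had an r of -0.80, so that this pair also ran apart within groups. Ccnd1 and Ccnd2 then had an r of 0.82, against -0.19 over the 12 arrays. For Cdk4 with E2f1 and Ccne2 with Cdk4 the r within groups was lower, at 0.36 and 0.19. These are descriptions of 12 arrays, with no test.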

How the data were processed

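Per the labels' protocols, a PicoPure kit served to isolate RNA, NuGEN Ovation to amplify it and the NuGEN Encore Biotin Module to label it. The authors deposited log2 expression values for 35557 probe sets on 12 arrays, and the steps of summarizing and normalizing are not given in the sources used here. No further normalization was applied. Of the probe sets, 21789 carried 1 symbol, and the one with the highest mean stood for each of 19938 genes, with no filter on dim signals. A model of 4 group means was fitted with limma 3.58.1 (lmFit, eBayes) in R 4.3.3 to all 12 arrays, with two-sided tests in 7 comparisons. The text names all 10 genes, up to 3 called genes of largest change per list and KO against WT, and, for each gene called against WT, the 3 genes of highest correlation. Members and lists were chosen with earlier results of these data known. Of 150 list entries 139 were measured. Promoters were matched by symbol in Python 3.11.15. The alternatives were 9 other settings and 12 fits that left out 1 array. For arrays, their number limits the precision.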

Additional observations from a re-analysis of the deposited data

Results flagged for a closer look

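Cdkn1b stood out in the way the groups were ordered. Nkx2-5 KO arrays lay above WT arrays without overlap, while double KO arrays lay below Tbx5 KO arrays without overlap, and likewise Tbx5 KO arrays lay above WT arrays and double KO arrays below Nkx2-5 KO arrays. This order held for the probe set used and not for the second one, where WT and double KO arrays overlapped the single KO groups. Double KO hearts differed by -0.18 ± 0.14 from Nkx2-5 KO hearts and by -0.17 ± 0.14 from Tbx5 KO hearts. Neither was called (limma, adjusted p = 0.462 and 0.475). The non-additive term, the double KO change less both single KO changes, was -0.89 on the log2 scale, and in limma it was not called (adjusted p = 0.0743).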

How the results depend on the processing

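Counts of the 10 genes called moved by over 1.5 times under some settings. For Nkx2-5 KO against WT the count of 1 was 3 with array weights, 0 with the mean of a gene's probe sets, and 0 to 2 with 1 array left out. For Tbx5 KO against WT the count of 3 was 0 with only the arrays compared and 0 to 3 with 1 array left out. For double KO against Nkx2-5 KO the count of 4 was 2 after quantile normalization again, 1 with only the arrays compared, and 1 to 5 with 1 array left out. For double KO against Tbx5 KO the count of 4 was 6 with array weights and 2 to 5 with 1 array left out, and the non-additive count of 0 was 1 with array weights and 0 to 1, with 1 array left out. For double KO against WT it was 5 to 8, and for Tbx5 KO against Nkx2-5 KO always 1. The causes were not tested. Of the single changes 1384 stayed on their side of the threshold, 57 lost a call, 16 gained one and 3 moved by over 1 SD without a call. No change called with all arrays turned sign. Some uncalled changes near 0 did. Ccnd2 in double KO against WT went from 0.06 to as low as -0.07 in the 9 other settings. Cdk2 in Nkx2-5 KO against WT went from -0.05 to as high as 0.06 with 1 array left out. Over all genes, array weights raised the calls to 2132 for Nkx2-5 KO against WT (884 otherwise), to 933 for Tbx5 KO against WT (461), to 2481 for double KO against Nkx2-5 KO (1109), to 1424 for Tbx5 KO against Nkx2-5 KO (476) and to 343 for the non-additive term (109), and only the arrays compared gave 570 for double KO against Nkx2-5 KO. Centring each array on its median gave 209 higher and 646 lower for Nkx2-5 KO against WT (367 and 517 otherwise), 131 and 294 for Tbx5 KO against WT (199 and 262), and 302 and 1917 for double KO against Tbx5 KO (572 and 1567). The replicate numbers of the labels gave no pairing: deviations of same-numbered arrays from their group means had correlations of -0.27 to 0.21, and 2 of 12 arrays correlated best with their own number. With the replicate block the counts were 1, 3, 7, 3, 3, 1 and 0 for the 3 comparisons with WT, double KO against Nkx2-5 KO, double KO against Tbx5 KO, Tbx5 KO against Nkx2-5 KO and the non-additive term, and it ended the calls of Cdk4 against Nkx2-5 KO (limma, adjusted p = 0.0733) and of E2f1 against Tbx5 KO (0.0527) in double KO hearts.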
